A study of Mus musculus with 66 samples.

Results

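Kalrn encodes kalirin, a large guanine nucleotide exchange factor that loads small GTPases such as Rac1 with GTP in neurons. Its single probe was followed here in mouse cerebellum from the third week of life to 24 months. The rule took every probe whose gene symbol in the platform annotation is exactly Kalrn (Entrez gene 545156), and 1 of the 8448 probes of the filter met it, that is 1 gene of the 3905 that 4788 probes name with 1 symbol each. Kalrn was chosen by its levels across age and diet in these same arrays, so those levels and their differences are given as a description with no test. Sex did not enter the choice, and the contrasts of females with males were tested.

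RNA from the cerebellum of C57BL/6 mice was labelled with 33P (by the labels) and hybridised to nylon cDNA filters, 1 mouse per filter and 66 filters in all. The mice were 31 males and 35 females, and diet was the only treatment the labels name. Those fed ad libitum (AL) received regular feed without limit until death. They were 5 mice of 17 to 21 days, 5 of 33 to 44 days, 10 of 6 months (169 to 194 days), 10 of 16 months (476 to 499 days) and 9 of 24 months (704 to 743 days). The mice under caloric restriction (CR) were stepped down in young adulthood to 60% of that feed in fortified form, and they were 9 mice of 6 months (174 to 194 days), 10 of 16 months (472 to 499 days) and 8 of 24 months (673 to 743 days). No young mouse was under CR. The measurement of whole tissue cannot tell fewer cells of a type from less RNA per cell.

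Dendritic spines are the small protrusions on which most excitatory synapses of the brain sit, and their shape follows the actin skeleton inside them. Exchange factors switch small GTPases such as Rac1 on, and effectors such as PAK, LIMK1 and the Arp2/3 complex carry the signal to actin. Kalirin is known as the exchange factor that builds and maintains spines at excitatory synapses, and in the cerebellum its transcripts are known from Purkinje cells, whose dendrites carry dense spines. The gene yields several isoforms through alternative starts and ends, and the filter carries 1 cDNA for it, so the values here stand for whichever isoforms that cDNA detects.

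The unit is the z score that the authors computed per array, which sets the mean of all probes to 0 and their SD to 1. A difference is therefore a share of an array's spread and not a fold change. Kalrn had a mean of 0.574 over the 66 arrays and lay above 0 on 64 of them, so its signal was brighter than the average spot of its own array in nearly every mouse. Arrays with running number 1 to 24 in the labels (24 early arrays) and 25 to 67 (42 late arrays) differ as sets, and they are called early and late by number only, since the labels do not say what the number counts. A term for the sets was kept in every fit unless stated. Kalrn was 0.658 ± 0.158 (SD, n = 24) on early and 0.526 ± 0.284 (SD, n = 42) on late arrays, and the fitted difference of late minus early was -0.091. On 7 arrays, 2 of AL mice and 5 of CR mice, the correlation with the rest of their set had a median under 0.9, and results that lean on them are also given without them. No pair of the 66 arrays held identical values.

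Over all arrays Kalrn had its highest group mean in AL mice of 6 months. The lowest of these 10 mice was at 0.53, the median at 0.72 and the highest at 1.06, with a mean of 0.767 ± 0.170 (SD). Without the arrays that stand apart the mean was 0.72, beside 0.701 in CR mice of 6 months. On early arrays this group was not the highest. Its mean there was 0.68 (n = 4), below AL mice of 16 months (0.70), CR mice of 6 months (0.71) and CR mice of 16 months (0.715). In the 5 mice of 17 to 21 days the females were at 0.44 and 0.70 on early arrays and 0.71 on a late array, and the males at 0.57 and 0.63 on late arrays. These pups lay close together, with a mean of 0.610 ± 0.111 (SD, n = 5). The 5 mice of 33 to 44 days were at 0.43 and 0.82 (males, early arrays), 0.02 (male, late array), and -0.13 and 0.26 (females, late arrays). This group had both the lowest mean and the widest spread of all 8 groups, 0.280 ± 0.371 (SD, n = 5). Its 3 mice on late arrays were all below the 3 pups on late arrays, while its 2 mice on early arrays enclosed the 2 early pups. Across all probes limma called 0% of 8448 between these ages at an adjusted p under 0.05, with 496 at an unadjusted p under 0.05.

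At 16 months the 10 AL mice ran from 0.42 through a median of 0.565 to 0.90, with a mean of 0.585 ± 0.139 (SD). At 24 months the 9 AL mice ran from 0.19 through 0.45 to 0.70, with a mean of 0.480 ± 0.164 (SD). All 9 were below the median of the 6-month AL mice, and 5 of them were below the lowest 6-month mouse, so the groups overlapped in part.

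Under CR the order of the ages was the same. The 9 CR mice of 6 months ran from 0.40 through 0.64 to 0.99, with a mean of 0.684 ± 0.198 (SD). The 10 CR mice of 16 months ran from 0.39 through 0.65 to 1.03, with a mean of 0.639 ± 0.210 (SD). The 8 CR mice of 24 months ran from -0.34 through 0.37 to 0.79, with a mean of 0.381 ± 0.349 (SD). The value of -0.34 belongs to a female on 1 of the 7 arrays that stand apart, and without that array the group's mean was 0.484.

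**Figure D1:**
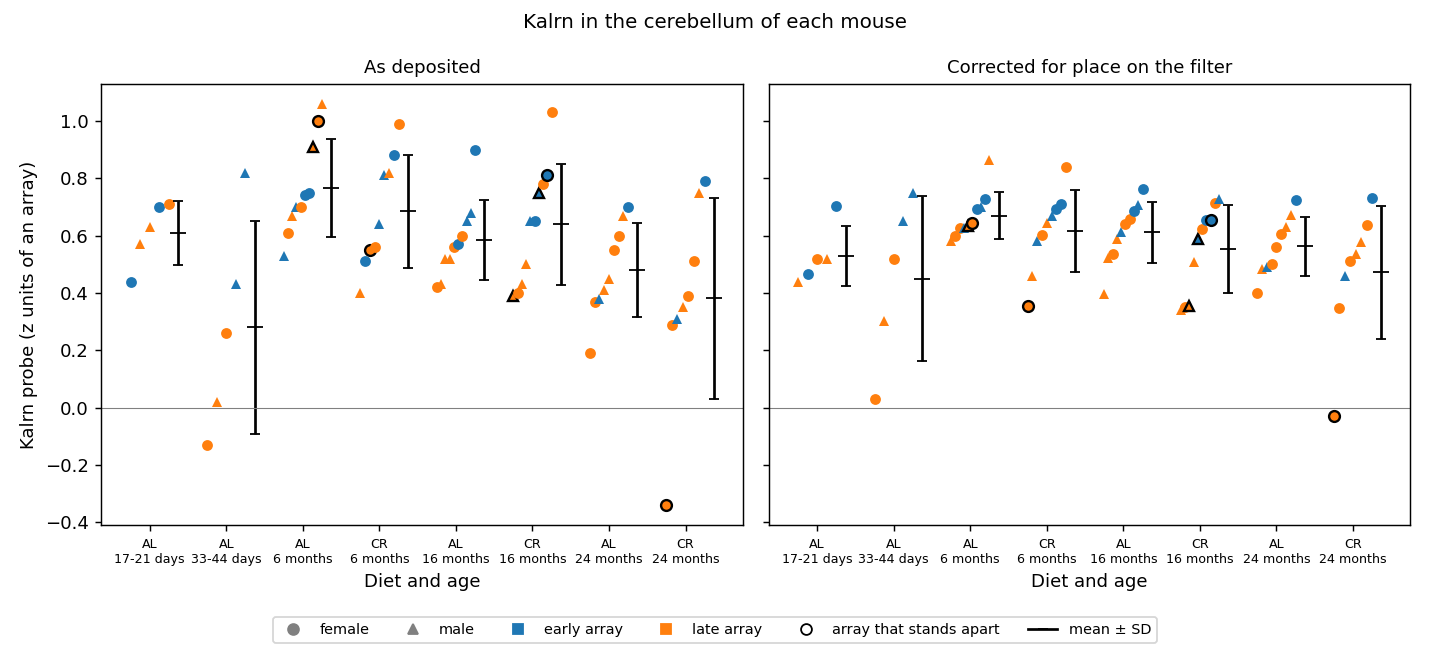
Kalrn z score (vertical axis, z units of an array) of each of the 66 mice by diet and age, as deposited (left) and after the correction for place on the filter described in the text (right). Circles are females, triangles males, blue early and orange late arrays, a black outline marks the 7 arrays that stand apart, and the bar at the right of each group is the mean ± SD. The AL mice of 33 to 44 days spread from -0.13 to 0.82 as deposited, and the groups lie closer together in the right panel.

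Ordered by mean, the groups ran from AL 6 months (0.767) over CR 6 months (0.684), CR 16 months (0.639), AL 17 to 21 days (0.610), AL 16 months (0.585), AL 24 months (0.480) and CR 24 months (0.381) to AL 33 to 44 days (0.280). Neighbours in this order were at most 0.105 apart, which is less than the SD within any of the groups. Sorting by mean keeps such steps small, and the SD is that of single mice, so the small steps do not show that the groups were alike.

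The differences below come from a linear model over all probes with groups of diet, sex and age and a term for early and late arrays, sexes weighted equally. Between 17 to 21 and 33 to 44 days Kalrn differed by -0.364 ± 0.144 (SE, n = 5 and 5), and on late arrays alone by -0.613 ± 0.203. The early arrays hold females of the younger and males of the older group, so no comparison within early arrays was possible. Of all probes 4.21% had a larger difference in size. Kalrn was chosen by its levels across age and diet, so this share and those below are descriptions and no p-values.

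From 33 to 44 days to 6 months the difference of Kalrn was 0.517 ± 0.124 (SE, n = 5 and 10), the largest of the 13 differences in age and diet described for this gene. All 10 mice of 6 months were above the median of the 33 to 44 day mice, and 3 of them were above its highest mouse. The difference was 0.783 on late arrays and 0.463 without the arrays that stand apart. On early arrays the 2 males of 33 to 44 days averaged 0.625 and the 2 AL males of 6 months 0.615, a difference of -0.010. The fitted difference of 0.517 was exceeded in size by 55 probes, or 0.651% of all. Limma called 0% of the 8448 probes, with 917 at an unadjusted p under 0.05. The same 6-month mice differed from the pups of 17 to 21 days by 0.153 ± 0.124 (SE), and by 0.0985 without the arrays that stand apart. These groups overlapped, with 2 of the 10 adults below the pups' median.

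In adult AL mice Kalrn differed by -0.182 ± 0.100 (SE, n = 10 and 10) from 6 to 16 months, by -0.0893 ± 0.104 (n = 10 and 9) from 16 to 24 months and by -0.271 ± 0.104 from 6 to 24 months. The step from 6 to 16 months was -0.317 on late and 0.020 on early arrays, where its direction turned. Without the arrays that stand apart it was -0.127. The whole span was -0.356 on late arrays and -0.219 without the arrays that stand apart. On early arrays, which hold 2 AL mice of 24 months, it was -0.140 ± 0.145 (SE). Females differed by -0.278 (n = 5 and 5) and males by -0.297 (n = 5 and 4) over that span. Both sexes thus had lower means at 24 than at 6 months. Of all probes 13.6% had a larger difference from 6 to 24 months. Limma called 0% of the 8448 probes from 16 to 24 months, with 132 at an unadjusted p under 0.05, and 0% from 6 to 24 months, with 1408 at an unadjusted p under 0.05.

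In CR mice Kalrn differed by -0.0392 ± 0.103 (SE, n = 9 and 10) from 6 to 16 months, by -0.228 ± 0.108 (n = 10 and 8) from 16 to 24 months and by -0.267 ± 0.111 from 6 to 24 months. The step from 16 to 24 months was -0.148 without the CR female of 24 months on the array that stands apart, and the whole span was -0.188 without that mouse. The step from 6 to 16 months was 0.00311 without 1 CR female of 6 months that had the highest value of its group and 0.005 on early arrays, and the medians of the ages were 0.64 and 0.65, so it had no settled direction. Over the whole span the difference was -0.274 on late arrays. On early arrays, which hold 2 CR mice of 24 months, it was -0.160 ± 0.145 (SE).

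In the deposited values the diets differed by less in size than the ages of 6 and 24 months did, a contrast that was not tested. CR minus AL was -0.0888 ± 0.103 (SE) at 6 months, 0.0540 ± 0.100 at 16 months and -0.0846 ± 0.111 at 24 months. In the males of 24 months diet cannot be told apart from age. The 3 CR males were all 673 days old and the 4 AL males 719 to 743 days. The females of that age were 703 to 743 days under CR and 704 to 733 days in AL. At 6 months it was -0.01875 without the arrays that stand apart, and at 24 months -0.00256 without the CR female named above. Over the 3 ages together it was -0.0398 ± 0.0605 (n = 27 and 29), and 0.00771 without the arrays that stand apart, which turned its direction. On early arrays it turned as well, to 0.0183 ± 0.0788 (SE) over all adults. At 6 months it was 0.030 ± 0.118 there (-0.170 on late arrays) and at 24 months 0.010 ± 0.167 (-0.0875 on late arrays). The early arrays hold only 2 AL and 2 CR mice of 24 months, and each of these early values was smaller than its SE. The 27 CR mice ran from -0.34 through a median of 0.56 to 1.03 and the 29 AL mice from 0.19 through 0.60 to 1.06. Of the CR mice 14 were below and 13 above the AL median. Limma called 0% of the 8448 probes between the diets, with 179 at an unadjusted p under 0.05.

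**Figure D2:**
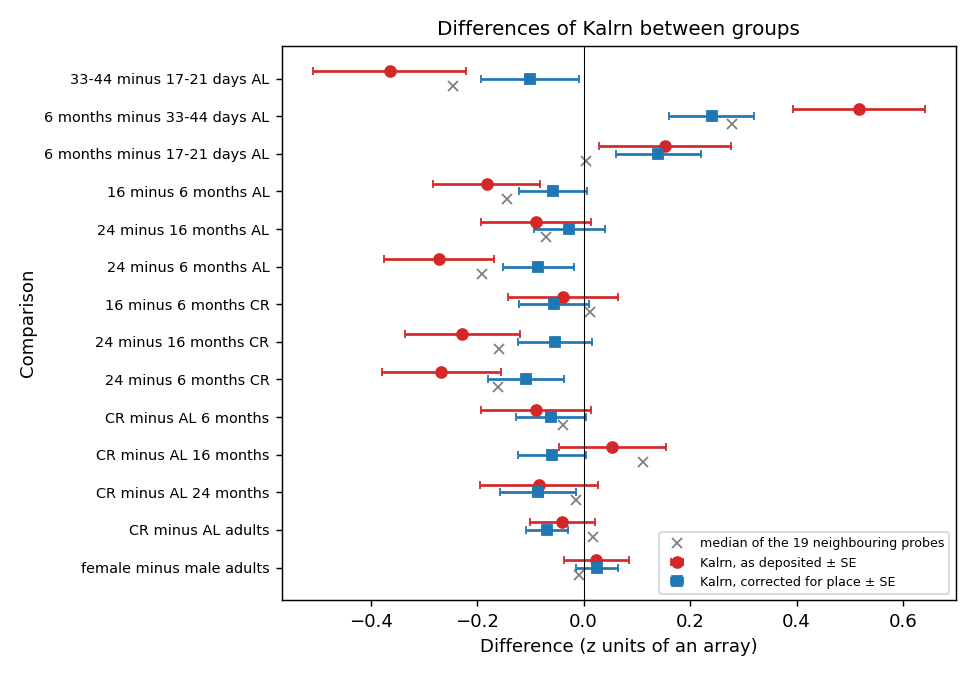
Differences of Kalrn between groups (horizontal axis, z units of an array) for 14 comparisons (vertical axis), as deposited (red circles, ± SE) and corrected for place (blue squares, ± SE), with the median difference of the 19 neighbouring probes (grey crosses). The deposited value from 33 to 44 days to 6 months is 0.517 and the corrected value 0.241, and the crosses lie on the side of the deposited value in each comparison between adults of 6 and 24 months.

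Females and males had nearly the same Kalrn level. The 30 adult females ran from -0.34 through a median of 0.60 to 1.03, with a mean of 0.602 ± 0.275 (SD), and the 26 adult males from 0.31 through 0.585 to 1.06, with a mean of 0.592 ± 0.190 (SD). The fitted difference of females minus males was 0.0242 ± 0.0605 (SE), with a 95% interval from -0.0971 to 0.145 and an adjusted p of 0.9996 by limma. A permutation test that exchanged sex within diet, age and array set, with 100000 resamples and two-sided, gave p = 0.571 for a difference of 0.0329. On late arrays the difference was -0.0178 ± 0.0796 and on early arrays 0.167 ± 0.0788. Limma called 0% of the 8448 probes between the sexes, with 89 at an unadjusted p under 0.05.

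The sexes were also compared in their differences. The change from 6 to 24 months in AL mice differed between females and males by 0.0231 ± 0.206 (SE, adjusted p = 0.982 by limma), with a 95% interval from -0.390 to 0.436. Limma called 0% of the probes for this interaction, with 404 at an unadjusted p under 0.05. The difference between CR and AL differed between the sexes by 0.0183 ± 0.121 (SE, adjusted p = 0.996 by limma), with an interval from -0.224 to 0.261, and 0% of the probes were called, with 352 at an unadjusted p under 0.05. The interval for the change with age reaches past the size of the difference from 6 to 24 months itself (-0.271), so a dependence on sex of that size was not detectable with these arrays.

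The place of the Kalrn spot on the filter moved with its values. No platform record was used for the layout, which was read off the sequence of probe IDs, as a grid of 16 by 24 zones with 22 slots each. In it Kalrn has zone row 15, zone column 22 and slot 12, near a corner. Within 2 zones of it in either direction lie 19 other clones of slot 12, called its neighbours here. Their median correlation with Kalrn over the 66 arrays was 0.584, from 0.0454 to 0.773, against 0.00219 for all probes, after taking off the mean of each array set. In zones 17 or more away the median was -0.0300 for the same slot and -0.228 for the other slots. The deviation of Kalrn correlated with the median deviation of these 19 neighbours at r = 0.829 over 66 arrays, at 0.803 without the 2 arrays farthest from the median and at 0.818 without the arrays that stand apart. These points share filters and hybridisations, and the correlation is a description.

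**Figure D3:**
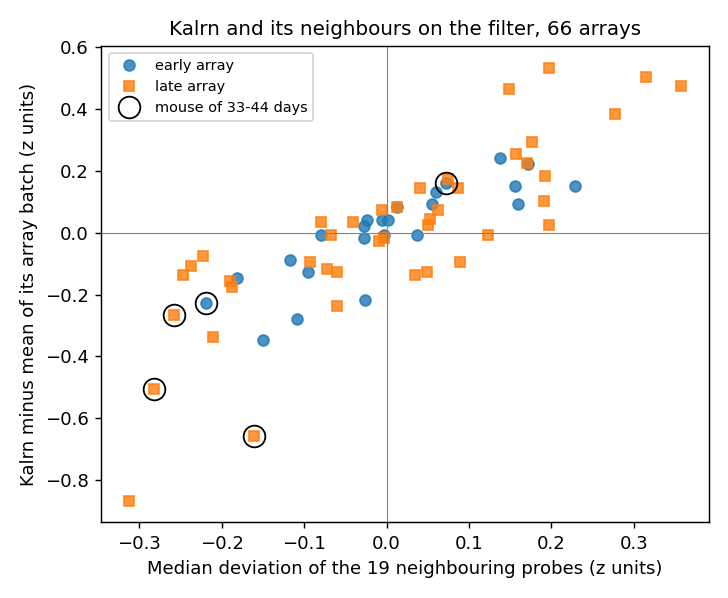
Deviation of Kalrn from the mean of its array set (vertical axis, z units) against the median deviation of its 19 neighbouring probes (horizontal axis, z units), 1 point per array, early arrays as blue circles and late arrays as orange squares. Open rings mark the 5 mice of 33 to 44 days, of which 4 lie low on both axes. The points climb together, with r = 0.829 over 66 arrays.

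The neighbours moved with Kalrn in several of the comparisons of age as well, but not in all. Between the young ages all 19 neighbours had the same sign as Kalrn, with a median difference of -0.245, and from 33 to 44 days to 6 months 18 of 19 did, with a median of 0.278. From 6 to 24 months in AL mice all 19 had the sign of Kalrn, with a median of -0.190, and in CR mice 18 of 19 did, with a median of -0.161. From 6 to 16 months in AL mice all 19 did, and from 16 to 24 months in CR mice 18 of 19. Fewer did from 17 to 21 days to 6 months (11 of 19) and from 16 to 24 months in AL mice (13 of 19). From 6 to 16 months in CR mice 8 of 19 did, with a median of 0.0130 against -0.0392 for Kalrn. Between the diets 14 of 19 had the sign of Kalrn at 6 months, all 19 at 16 months (median 0.112) and 11 of 19 at 24 months. Over all adults 6 of 19 had it.

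Values corrected for place, in which the neighbours' median deviation on each array is taken off, were therefore set beside the deposited ones. The correction also removes any change that Kalrn truly shared with those 19 genes. It narrowed the spread of Kalrn within groups from 0.222 to 0.143. The means after it were 0.669 ± 0.0823 (SD) in AL mice of 6 months, 0.611 ± 0.106 at 16 months and 0.563 ± 0.104 at 24 months, and 0.616 ± 0.143, 0.552 ± 0.153 and 0.472 ± 0.232 in CR mice of those ages. In the young mice they were 0.529 ± 0.104 and 0.450 ± 0.287. AL 6 months stayed the highest and AL 33 to 44 days the lowest of the 8 groups.

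Every difference between the ages kept its sign after the correction, and most became smaller. From 33 to 44 days to 6 months it was 0.241 ± 0.0797 (SE), and the 10 adults were again all above the median of the younger mice. Between the young ages it was -0.100 ± 0.0926. The difference of 6 months from 17 to 21 days moved least, at 0.140 ± 0.0797, with all 10 adults above the pups' median. From 6 to 24 months it was -0.0851 ± 0.0665 in AL and -0.109 ± 0.0715 in CR mice. Of all probes, 3.49% had a larger corrected difference in size from 33 to 44 days to 6 months (0.651% as deposited). That share was 36.6% between the young ages (4.21% as deposited) and 27.85% from 6 to 24 months in AL mice (13.6% as deposited). CR minus AL over all adults was -0.0685 ± 0.0388, and at 16 months the sign turned, from 0.0540 to -0.0589. CR minus AL was -0.0614 at 6 and -0.0853 at 24 months, so that after the correction the diets at 24 months differed as much as the AL ages of 6 and 24 months (-0.0851). Females minus males stayed at 0.0253 ± 0.0388. The part of place in the deposited differences was not tested beyond this correction.

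The genes whose values ran most like those of Kalrn were sought among 4787 probes with 1 symbol, by Pearson's r over the 66 arrays after taking off the mean of each array set. The highest were Secisbp2, a factor for reading selenocysteine codons (0.785), Blvrb, a biliverdin reductase (0.773), Syf2, a splicing factor (0.748), Dst, the cytoskeletal linker dystonin (0.726), and Pura, a DNA- and RNA-binding protein of neurons (0.722). The first 4 of these lie within 2 zones of Kalrn on the filter. After the correction for place Secisbp2 was at 0.548, Pura at 0.530 and Blvrb at 0.436, but Syf2 at -0.159 and Dst at 0.172. Blvrb shares the slot of Kalrn and is 1 of the 19 neighbours whose median was taken off. The lowest were Tomm40, a pore protein of the mitochondrial outer membrane (-0.620), Brdt, a testis bromodomain protein (-0.606), and Nap1l1, a histone chaperone (-0.602), all at least 11 zone rows away. In corrected values the highest were Ppp4r1, a phosphatase subunit (0.601), Grb2, an adaptor of receptor tyrosine kinases (0.582), Zfand2b (0.567) and Lrr1 (0.550), followed by Secisbp2, and the lowest were N4bp1 (-0.543), Neil3, a DNA repair glycosylase (-0.507), and Pde4a, a cAMP phosphodiesterase (-0.504). Secisbp2 was the 1 gene among the 5 highest on both scales.

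Of 149 genes in 3 lists, for actin effectors, spine proteins and kalirin's partners, 32 were measured with 1 symbol, by 43 probes, and 11 of the 32 had a probe with a mean above 0. Many members were thus dimmer than the average spot. In each of 6 comparisons 0 of the 32 passed at an adjusted p under 0.05 by limma, the share of all probes being 0% as well. Those with an unadjusted p under 0.05 numbered 3 between the young ages, 6 from 33 to 44 days to 6 months, 2 from 16 to 24 months and 10 from 6 to 24 months in AL mice, 3 between the diets and 0 between the sexes. The share of all 3905 named genes at that limit, taking the smallest p of a gene's probes as for the members, was 6.91%, 13.1%, 2.07%, 19.6%, 2.92% and 1.41% in the same order, and such counts are no calls. The adjusted p-values given for single members below are those of limma.

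Among kalirin's partners 2 of 24 were measured, namely its substrate Rac1, and Crk, an adaptor that binds it. From 33 to 44 days to 6 months, where Kalrn differed by 0.517, Rac1 differed by 0.0491 ± 0.123 (SE) and Crk by -0.107 ± 0.388. From 6 to 24 months in AL mice, where Kalrn differed by -0.271, Rac1 differed by -0.0852 ± 0.102 and Crk by 0.463 ± 0.323. Neither passed in any of the 6 comparisons. Crk had a dim probe with a mean of -2.63, and from 16 to 24 months it differed by 0.664 ± 0.323 (adjusted p = 0.9998), while Rac1 differed by -0.107 ± 0.102. Between the young ages Rac1 differed by -0.0717 and Crk by 0.433. Rac1 was at 0.0877 and Crk at 0.0529 for CR minus AL, and at -0.00612 and 0.260 for females minus males.

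The effectors that lead to actin were measured in 22 of 71 cases, and they held all 10 members with an unadjusted p under 0.05 from 6 to 24 months in AL mice, where 19.6% of all named genes had one. Their median there was -0.116, with 7 higher and 15 lower, beside -0.0470 for all named genes. Cdc42se2, a small effector of Cdc42, differed by -0.499 ± 0.138 (adjusted p = 0.164) over that span and by -0.291 ± 0.138 from 16 to 24 months, with corrected values of -0.463 and -0.306. Its other probe was at -0.168 ± 0.119 and -0.0619 ± 0.119, with corrected values of -0.0571 and -0.0619, so the size of the difference rests on 1 probe. The other 9 of those 10 effectors had corrected differences over 1.5 times smaller than the deposited ones. The probe with the smallest p stands for a gene with several. For CR minus AL that was the other probe of Cdc42se2, at -0.159 ± 0.0693, while the probe of the age values was at 0.0698 ± 0.0804. Limk1, the kinase that phosphorylates cofilin, differed by -0.307 ± 0.138 (adjusted p = 0.830) from 17 to 21 to 33 to 44 days and by -0.0910 after the correction. Iqgap1, a scaffold for Rac1 and Cdc42, differed by 0.377 ± 0.127 (adjusted p = 0.337) from 33 to 44 days to 6 months, with its other probe the other way, and Wipf3 had the smallest p of the list between the sexes, with a difference of 0.0648 (adjusted p = 0.9996).

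Of 61 spine and postsynaptic proteins 8 were measured. Actn1, an actin crosslinker, differed by 0.282 ± 0.163 (adjusted p = 0.518) from 33 to 44 days to 6 months and by -0.166 ± 0.0916 (adjusted p = 0.348) from 6 to 24 months in AL mice, by different probes. Corrected for place these were 0.113 and -0.0724. In each comparison 2 of its 3 probes had the deposited sign of Kalrn. Cbln1, the synapse organiser that granule cells secrete onto Purkinje spines, differed by 0.279 ± 0.173 (adjusted p = 0.870) from 17 to 21 to 33 to 44 days, where Kalrn had -0.364, and by 0.00151 from 6 to 24 months. Shank3, a scaffold of the postsynaptic density, differed by 0.224 ± 0.102 between CR and AL and by 0.132 ± 0.102 between females and males, and Mapt, the microtubule protein tau, by 0.172 ± 0.103 from 16 to 24 months. None passed.

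**Figure D4:**
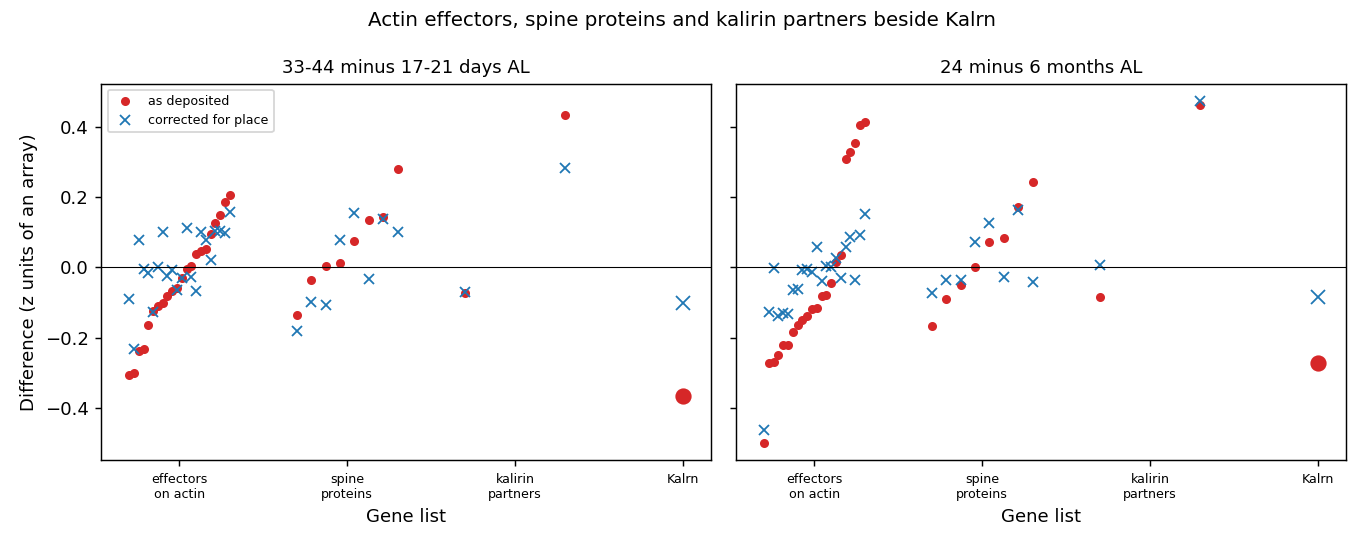
Differences (vertical axis, z units of an array) of each measured member of the 3 lists beside Kalrn (large symbols), from 17 to 21 to 33 to 44 days (left) and from 6 to 24 months (right) in AL mice, as deposited (red circles) and corrected for place (blue crosses). None of the members passed the test in either comparison. The highest circle among the kalirin partners is Crk, at 0.433 and 0.463.

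The check of the tissue against cell markers was limited by what the filter names. Of the Purkinje cell markers 1 of 16 was measured (Rora) and of the granule neuron markers 1 of 16 (Cbln1), and neither passed in any of the 6 comparisons. Rora, a nuclear receptor that Purkinje cells need, differed by 0.347 ± 0.146 from 6 to 24 months in AL mice (adjusted p = 0.235 by limma), against -0.271 for Kalrn, and by 0.0583 after the correction for place. The markers of dividing and immature cells (12 of 26 measured), astrocytes and Bergmann glia (4 of 20), oligodendrocytes (2 of 22), microglia (2 of 17) and endothelium, meninges and blood (5 of 25) had 0 members that passed in these comparisons. The share of all 8448 probes that passed was 0% as well, so these counts do not show whether the make-up of cells differed.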

How the data were processed

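The authors labelled about 5 µg of total RNA from each cerebellum with 33P per the labels (the published methods name 32P), hybridised it to filter A of the NIA mouse 17K cDNA set, read the filters with ArrayPro and deposited 1 z score for each of 8448 probes on each of 66 arrays. Whether a logarithm preceded the z score is not given in the sources used here. The number of arrays limits the precision.

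Probe symbols came from the platform annotation (4788 probes with 1 symbol, 212 with several, 3448 with none). Groups came from the labels. R 4.3.3 with limma 3.58.1 (lmFit, contrasts.fit, eBayes) fitted the deposited scores on 16 groups of diet, sex and age and a term for early and late arrays, which left 49 residual degrees of freedom. Benjamini-Hochberg adjustment ran over all probes with 0.05 as the threshold. For the correction for place, the median deviation of the neighbours (same slot, up to 2 zones off) was taken off per array. Both steps were run on simulated data with independent noise and, for place, a smooth field drawn separately for each slot. On the real filters probes of other slots 1 zone away also correlated with Kalrn (median r = 0.339). The simulated setting therefore differs from that of the filters. The members, lists, array sets and alternatives were chosen with earlier results of these data known. Named genes were Kalrn, in each list and comparison up to 4 called members or else the 1 with the smallest p, all measured kalirin partners, and the 5 highest and 3 lowest by r. Rora was named after their values were seen. No probe or protein sequence of Kalrn was used here, and some further lists of genes are not reported here. Plots used matplotlib 3.10.9 under Python 3.11.15.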

Additional observations from a re-analysis of the deposited data

How the results depend on the processing

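The labels give no replicate numbers, but the running numbers repeat the order of the groups in 5 run sets with at most 1 mouse of each diet, sex and age. Deviations from the group means correlated with a median r of 0.0639 within and -0.0486 between run sets, which does not show that the sets pair the mice. With the run set as a replicate block, an alternative added after seeing the data, 0 of the 8448 probes were called in the 6 comparisons, and Kalrn differed by -0.237 from 6 to 24 months in AL and -0.191 in CR mice, by -0.0551 from 16 to 24 months in AL mice and by 0.484 from 33 to 44 days to 6 months. Within run set and sex the mouse of 24 months was below that of 6 months in 9 of 9 pairs in AL (from -0.63 to -0.04) and 7 of 8 in CR mice, and in 8 of 9 and 4 of 8 after the correction for place. These pairs hold no term for array set, and in run set 2 the 24-month mice were on late and the 6-month mice on early arrays. Kalrn was chosen by its levels across age, so the counts are no test. The other alternatives were no term for array set, correction for place, leaving out the 7 arrays that stand apart, early or late arrays alone, scaling by median and interquartile range, quantile normalization, leaving out each mouse, a filter on dim probes and the z ratio rule of the methods. Corrections with zones up to 1 and 3 away came after seeing the data. Most Kalrn differences by age and diet were smaller than the spread between replicates, so moving by less does not show stability. Of their values 131 moved by less, some to the other sign, and 9 by more. From 17 to 21 to 33 to 44 days these were -0.100 with the correction for place, -0.103 with zones up to 1 away, -0.0597 with the correction and the replicate block, and -0.613 on late arrays. From 33 to 44 days to 6 months they were 0.241, 0.189 and 0.280 with zones up to 2, 1 and 3 away, 0.221 with the correction and the block, and 0.783 on late arrays. Leaving out each mouse gave -0.462 to -0.267 and 0.419 to 0.614 in these comparisons, and -0.307 to -0.228 from 6 to 24 months in AL mice. The adult sex difference turned to -0.0178 on late arrays and was 0.00553 to 0.0509 with each mouse left out. The interaction of sex with diet turned to -0.0139 with zones up to 1 away, -0.0133 on early arrays, -0.00472 with the replicate block and -0.00221 with the block and the correction, and ran from -0.0194 to 0.0719 over the mice left out, reversing in 8 fits. That of sex with age was -0.00401 after quantile normalization and ran from -0.0582 to 0.101, reversing in 6 fits. None of these passed in any setting, and causes were not tested. The z ratio rule, which adjusts for no number of tests, called 1 of the listed genes from 17 to 21 to 33 to 44 days (196 of all probes), 2 from then to 6 months (236) and 4 from 6 to 24 months in AL mice (509), where limma called 0. All other settings called 0 of the listed genes. Leaving out a mouse brought up to 3 and 7 calls over all probes in comparisons with young mice.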
